A study of Homo sapiens with 4 samples.

Results

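The small heat shock proteins, the cytosolic HSP90 chaperones with their co-chaperones, and the heat shock factors were followed in A549 cells, a human lung adenocarcinoma line, after treatment with embelin, a benzoquinone with a long alkyl chain. The 10 genes were the small heat shock proteins HSPB1, HSPB8 and CRYAB, the HSP90 genes HSP90AA1 and HSP90AB1, the co-chaperones BAG3, AHSA1 and STIP1, and the factors HSF1 and HSF2. All probes that carry one of these gene names, or that target one of their RefSeq transcripts, were taken, which gave 20 probes of 50238 on the array, and 10 genes of the 17650 tested. The control group held 2 samples of untreated A549 cells and the embelin group 2 samples given 15 µM embelin, all collected at 4 h. All samples were of 1 established line, grown in 10% serum and moved to 2% serum 12 h before treatment. Total RNA of each sample was labelled with Cy3 and hybridized to 1 single-colour array. The labels do not say whether the samples of a group came from separate cultures, so p-values measure only the spread between these samples, which may be technical.

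Heat shock proteins hold unfolded proteins in a state from which they can be refolded or degraded. Small heat shock proteins bind such clients without using ATP. HSP90 uses ATP to bring kinases, hormone receptors and other clients to their active shape, with the help of co-chaperones that load clients or set the speed of its cycle. HSF1 is the main transcription factor of the heat shock response. It is held inactive by chaperones in unstressed cells, and on proteotoxic stress it forms trimers that bind heat shock elements, which are built of inverted repeats of a short GAA unit, in the promoters of chaperone genes. HSF2 is a related factor that can form mixed trimers with HSF1. BAG3 links HSP70 with HSPB8 and carries clients to selective autophagy.

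Some of the probe and promoter sequences of these genes are printed here. Probe sequences came from the array files, 5′ to 3′, and each is 60 bases long. Both HSPB1 probes shown first overlap, and the 41 bases that they share are in capitals, so their signals are not independent readings of the gene. CRYAB is shown because it was read by 1 probe, and the BAG3 probe shown is the dimmer of its 2 probes. The brighter BAG3 probe, which stands for the gene below, is not shown, and neither are the probes of HSF1 and HSF2.
HSPB1, brightest probe: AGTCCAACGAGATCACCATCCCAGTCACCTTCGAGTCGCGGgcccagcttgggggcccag
HSPB1, overlapping probe: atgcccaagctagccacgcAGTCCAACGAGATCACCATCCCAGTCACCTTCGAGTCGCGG
CRYAB: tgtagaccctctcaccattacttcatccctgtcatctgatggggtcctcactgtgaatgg
BAG3, dimmer probe: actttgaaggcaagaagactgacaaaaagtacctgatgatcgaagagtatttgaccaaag

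Promoter windows, from 250 bases before to 50 bases after a transcription start, came from RefSeq on GRCh38.p14, and 8 of the 10 genes had at least 1 window. They were searched on both strands for the heat shock element units GAANNTTC and TTCNNGAA, each of which reads the same on either strand, and for the longer elements GAANNTTCNNGAA and TTCNNGAANNTTC, which hold both units in overlap and are each other's reverse complement. At least 1 of the shorter units lay in a window of HSP90AA1, HSP90AB1, HSPB1, HSPB8 and STIP1, that is in 5 of 8 genes, against 13.5% of all 35116 windows. A longer element lay in the windows of HSP90AA1 and HSP90AB1, 2 of 8 genes, against 0.490% of all windows. The first count is over genes, which can have several windows, and the second over windows. Stretches around the units upstream of the start are printed with the matched letters in capitals. A match is a description of the letters and not a measured binding site.
HSP90AA1, chr14:102087085-102087152, minus strand: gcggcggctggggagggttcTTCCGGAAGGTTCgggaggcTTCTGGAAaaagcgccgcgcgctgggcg
HSP90AB1, chr6:44247758-44247863, plus strand: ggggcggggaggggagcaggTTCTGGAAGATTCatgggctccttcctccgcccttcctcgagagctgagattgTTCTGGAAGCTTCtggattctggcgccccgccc
HSPB1, chr7:76302471-76302518, plus strand: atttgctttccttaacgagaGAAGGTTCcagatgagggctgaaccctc
HSPB8, chr12:119178823-119178870, plus strand: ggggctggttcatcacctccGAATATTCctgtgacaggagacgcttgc

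Signals are given as log2 of the scanner intensity after each array was scaled to the same 75th percentile, so 1 unit is a 2-fold difference, and a level is compared only between arrays for the same probe. The share of probes well above background was 66.7% and 50.3% on the arrays of control samples 1 and 2, and 51.2% and 66.4% on those of embelin samples 1 and 2. The arrays thus formed a pair with more detected probes (control 1 and embelin 2) and a pair with fewer (control 2 and embelin 1), each holding both groups. The 4 arrays carried 1 scan time. Slide position was taken as their rank by the horizontal coordinate of the spots, with the embelin arrays at 2 and 3 and the controls at 4 and 1. Markers of A549 and epithelial cells were well above background on every array for 8 of 8 genes. Of the markers of other cells this held for CD68 of 4 leukocyte genes, COL1A1 of 4 fibroblast genes and 0 of 3 endothelial genes.

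The 20 probes all passed the filter, which asked that both arrays of a group, control or embelin, be well above background, and 18 were well above background on all 4 arrays. CRYAB passed through its embelin arrays, since only 1 of its 2 control arrays was well above background. Likewise the dimmer HSF2 probe was not well above background on the array of embelin sample 1. None of the 10 genes passed limma's test with Benjamini-Hochberg adjustment over all genes at 0.05 (0 of 10, where 1.81% of all genes tested did, 1.25% higher and 0.561% lower). Their smallest adjusted p was 0.0593. At an unadjusted p under 0.05 in limma, CRYAB was higher and BAG3 and HSF2 were lower, that is 3 of 10 genes against 19.5% of all genes (8.36% higher and 11.1% lower). With a 2-fold difference asked for as well, CRYAB and BAG3 remained, 2 of 10 against 8.25% of all genes (4.26% higher and 3.99% lower). CRYAB stands in both counts only through its embelin arrays, where it was higher. With a signal well above background asked of all 4 arrays it had no value, and the counts were 2 (BAG3 and HSF2) and 1 (BAG3). In 4 genes the embelin arrays did not overlap the control arrays (CRYAB and HSF1 higher, BAG3 and HSF2 lower), against 51.8% of all genes with 4 values (21.1% higher and 30.7% lower). These shares rest on 10 genes.

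**Figure D1:**
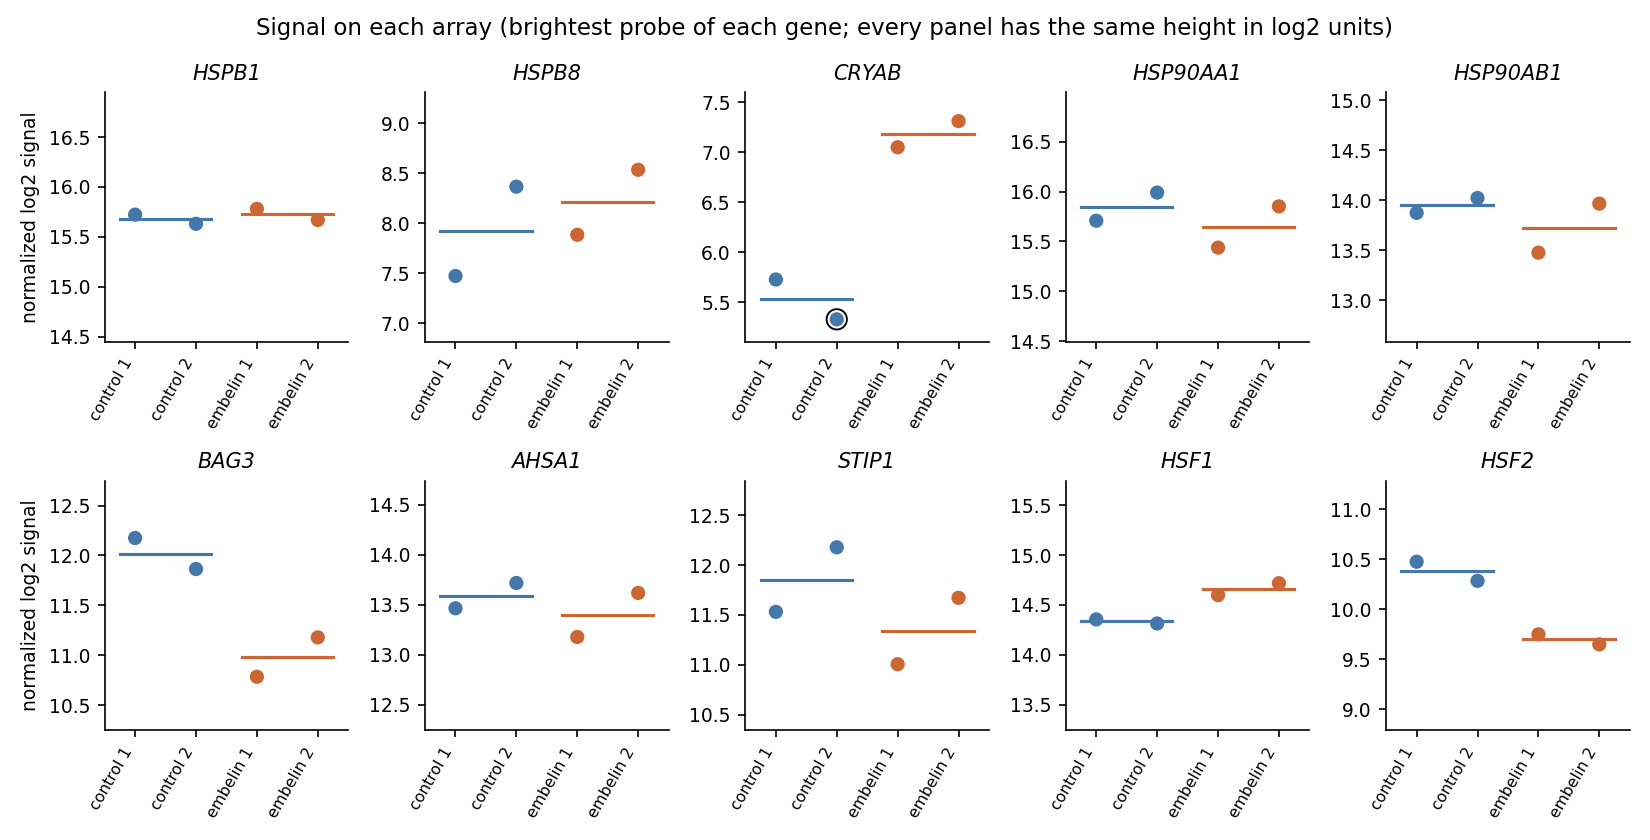
Normalized log2 signal (vertical axes, all 2.5 units tall but centred on each gene's own mean) on the 2 control arrays (blue) and the 2 embelin arrays (orange), for the brightest probe of each gene. Horizontal lines are group means, and the ringed point is the 1 array on which that probe was not well above background; the groups are apart for CRYAB, BAG3, HSF1 and HSF2 and overlap for the other 6 genes.

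Among the small heat shock proteins, CRYAB (αB-crystallin, which is also a structural protein of the eye lens) read 5.73 and 5.33 in the controls and 7.05 and 7.31 in the embelin treated cells. Both embelin arrays lay above both control arrays, by 1.32 log2 units at the closest. The reading of 5.33, in control sample 2, was not well above background and lay below 5.85, the lowest signal detected on that array. The fitted difference uses this reading, so neither it nor its interval is an exact measure of the fold. It was 1.65 in log2 (SE 0.23, 95% interval 1.03 to 2.28), with an adjusted p in limma of 0.0593, so CRYAB did not pass the test. Against control sample 1 alone, where the probe was well above background, the fitted difference was 1.46, with 1.32 for embelin sample 1 and 1.59 for embelin sample 2. With normexp background correction in place of the scanner software's own, its difference was 0.93 with an adjusted p of 0.0449 in limma. That setting also added an offset of 50 to the intensities, and the part of the offset in the smaller difference was not tested. With limma's trended and robust prior the SE of CRYAB was 0.42 and its adjusted p 0.0809. With no filter on dim probes its adjusted p in limma was 0.423. The genes whose signals over the 4 arrays were most like those of CRYAB, each centred on its own mean, were SH2B3, RASL10A and TncRNA (the name in the array file), with root mean square differences of 0.015, 0.020 and 0.023 in log2 among 17288 genes compared. SH2B3, like CRYAB, was well above background on only 1 of its 2 control arrays. A likeness over 4 arrays does not show shared regulation, which was not tested.

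HSPB1 (HSP27), an abundant small heat shock protein that also binds actin, read 15.72 and 15.63 in the controls and 15.78 and 15.67 after embelin. All 4 arrays lay within 0.15 log2 units of each other and the groups overlapped. The mean difference was 0.05 (SE 0.16, 95% interval -0.40 to 0.50, adjusted p in limma 0.912), and its 3 probes differed by -0.04, 0.05 and 0.07. The interval does not reach a 2-fold difference in either direction. HSPB8 (HSP22), the partner of BAG3, read 7.47 and 8.37 in the controls and 7.88 and 8.54 after embelin. The arrays of each group were further apart than the group means, and the mean difference of 0.29 had a 95% interval from -0.84 to 1.42 (adjusted p in limma 0.760). It was 1.06 between the arrays with more detected probes and -0.48 between those with fewer, and 0.41 and 0.17 between samples of the same number.

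The cytosolic HSP90 genes overlapped between groups. HSP90AA1, the heat-inducible form (HSP90α), read 15.71 and 15.99 in the controls and 15.44 and 15.85 after embelin, a difference of -0.20 (SE 0.23, 95% interval -0.84 to 0.43, adjusted p in limma 0.692). Its 3 other probes differed by -0.06, 0.01 and 0.21, so the 4 probes of the gene did not share a direction. HSP90AB1, the constitutive form (HSP90β), read 13.87 and 14.02 in the controls and 13.48 and 13.97 after embelin. The array of embelin sample 1 was the lowest of the 4 for the brightest probe of both genes, but not for all of their other probes. The difference for HSP90AB1 was -0.23 (SE 0.24, 95% interval -0.87 to 0.42, adjusted p in limma 0.660), and its other probes gave -0.10 and -0.12. For the brightest probe of both genes the 95% interval excludes a 2-fold change either way. Another HSP90AB1 probe, at -0.12, had a wider SE of 0.40. Between the arrays with more detected probes the brightest probes differed by 0.14 for HSP90AA1 and 0.09 for HSP90AB1, and between those with fewer by -0.55 and -0.55. Some of the other probes ran the opposite way in these pairs. A second HSP90AA1 probe gave -0.45 and 0.33, another -0.47 and 0.49, and a second HSP90AB1 probe -0.50 and 0.29. The last HSP90AA1 probe gave 0.006 and 0.41, and the last HSP90AB1 probe ran with the brightest, at 0.62 and -0.86. Between samples of the same number the brightest probes gave -0.27 and -0.14 for HSP90AA1, and -0.40 and -0.06 for HSP90AB1.

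The HSP90 co-chaperones AHSA1 and STIP1 overlapped between groups as well, and on each of their probes sample 2 of each group read higher than sample 1. This also held for the brightest probes of HSP90AA1 and HSP90AB1, but not for all of their other probes. AHSA1 (AHA1), which speeds up the ATPase of HSP90, read 13.46 and 13.72 in the controls and 13.18 and 13.62 after embelin, a difference of -0.19 (SE 0.24, 95% interval -0.84 to 0.45, adjusted p in limma 0.713). STIP1 (HOP), which joins HSP70 to HSP90 for the handover of clients, read 11.53 and 12.18 in the controls and 11.01 and 11.67 after embelin. The samples of 1 group were further apart than the means of the groups. The difference for STIP1 was -0.52 (SE 0.36, 95% interval -1.49 to 0.46, adjusted p in limma 0.497), and its second probe gave -0.46. With 1 array left out it ranged from -0.85 (without embelin sample 2) to -0.18 (without embelin sample 1), with -0.84 and -0.19 without control samples 1 and 2. It was 0.14 between the arrays with more detected probes and -1.17 between those with fewer, and for AHSA1 these values were 0.15 and -0.54. Between samples of the same number, STIP1 differed by -0.52 and -0.51 and AHSA1 by -0.29 and -0.10.

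BAG3, a co-chaperone of HSP70 and HSPB8 that is itself a heat-inducible gene, read 12.18 and 11.86 in the controls and 10.79 and 11.18 after embelin. Both embelin arrays lay below both control arrays. The signal was 2.05-fold lower, a difference of -1.04 in log2 (SE 0.23, 95% interval -1.68 to -0.40). The unadjusted p in limma was 0.0104 and the adjusted p 0.124, so BAG3 did not pass the test. The dimmer BAG3 probe, printed above, read 10.22 and 11.06 in the controls and 9.53 and 10.07 after embelin, and its groups did not overlap either. It gave a difference of -0.84, with a limma p of 0.0884 before adjustment. The brighter probe differed by -0.996 between the arrays with more detected probes and by -1.08 between those with fewer, and the dimmer one by -0.15 and -1.53. Without control sample 1 or embelin sample 1 the brighter probe gave -0.88 or -0.84, within 2-fold. With limma's trended and robust prior the adjusted p of BAG3 was 0.0404.

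The heat shock factors lay on opposite sides of 0. HSF1 read 14.36 and 14.31 in the controls and 14.60 and 14.72 after embelin. The embelin arrays were above both controls, by a mean of 0.32 in log2 (SE 0.16, 95% interval -0.12 to 0.77, adjusted p in limma 0.376), which is a 1.25-fold difference. It was 0.36 between the arrays with more detected probes and 0.28 between those with fewer. HSF2 read 10.48 and 10.29 in the controls and 9.75 and 9.65 after embelin, with both embelin arrays below both controls. The signal was 1.60-fold lower, a difference of -0.68 in log2 (SE 0.17, 95% interval -1.16 to -0.21, unadjusted p 0.0158 and adjusted p 0.150 in limma). Its second probe, dimmer and not well above background on 1 embelin array, read 6.55 and 6.73 against 5.70 and 6.32, a difference of -0.64. The HSF2 difference was -0.83 between the arrays with more detected probes and -0.54 between those with fewer, and the dimmer probe gave -0.24 and -1.04. These values are of mRNA, and HSF1 activity is set largely by its protein state, which the arrays do not read.

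**Figure D2:**
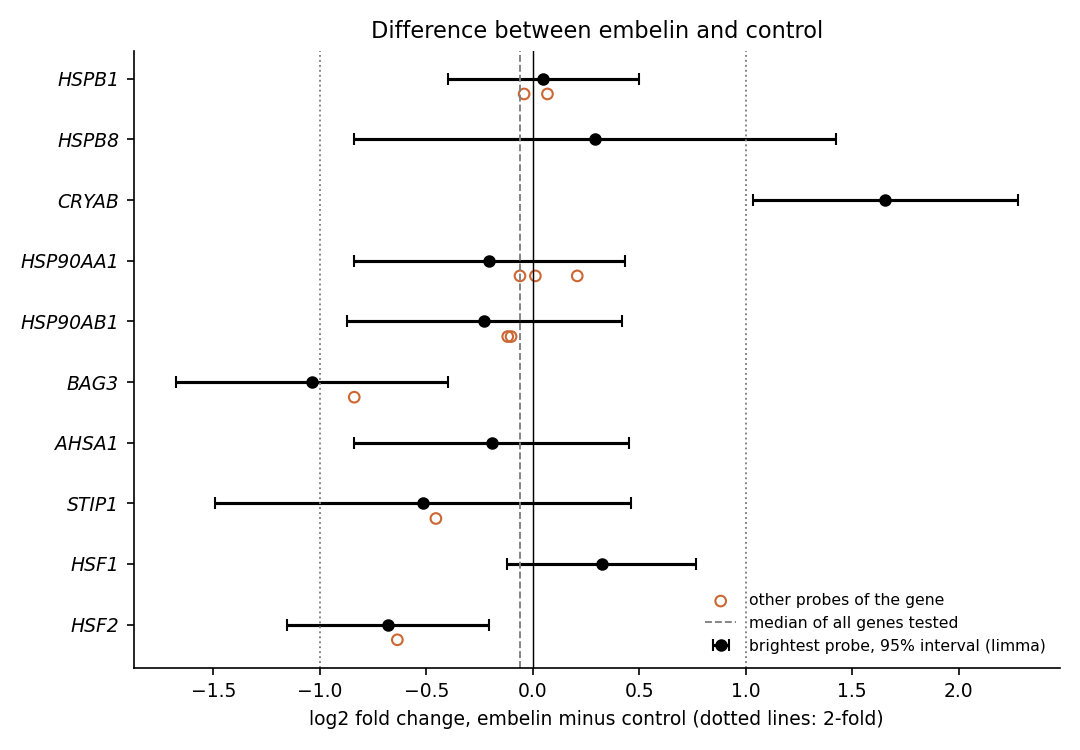
Log2 fold change of embelin over control (horizontal axis) for each gene, with filled points for the brightest probe, bars for the 95% interval of the limma fit, open orange points for the gene's other probes, a dashed line at the median of all genes (-0.06) and dotted lines at 2-fold. The intervals of CRYAB, BAG3 and HSF2 leave out 0 before adjustment, and those of the other 7 genes span it.

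Across the 10 genes, 4 were higher and 6 lower on average, and 8 were within 2-fold. The median log2 fold change was -0.20, beside a median of -0.06 over all genes tested. Most of all genes tested were lower too, with 54.0% of them below -0.022 and 59.3% below 0.031. Of the 6 genes with more than 1 probe, BAG3, HSF2, STIP1 and HSP90AB1 had all their probes on the same side of 0, while HSPB1 and HSP90AA1 did not. On the brightest probes, CRYAB, BAG3, HSF1 and HSF2 kept their sign across the pairs of arrays with a like share of detected probes. This was fixed beforehand, since their groups do not overlap and every pairing then gives the same sign. The differences of HSPB1, HSPB8, HSP90AA1, HSP90AB1, AHSA1 and STIP1 changed sign between these pairs. Between samples of the same replicate number, 10 of 10 brightest probes kept their sign, which was again fixed for CRYAB, BAG3, HSF1 and HSF2. Over all 20 probes, 7 kept their sign in the pairs of like detection and 16 in those of the same number. Both counts include the probes whose groups did not overlap. Whether the share of detected probes had a part in these differences was not tested.

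Other genes of the chaperone system were read from 7 lists set by role, with 63 genes listed, 62 on the array and 55 tested. Of the 55 genes 40 were lower and 15 higher on average, with a median of -0.21. Over all genes tested, 54.0% lay below -0.022 and 59.3% below 0.031. HSPA1A and HSPA1B passed limma's adjusted test, both lower. Both calls lay in the list of other heat-inducible HSF1 target genes (2 of 16 lower, where 0.561% of all genes were called lower). HSPA1A, the main stress-inducible HSP70, read 15.80 and 16.06 in the controls and 11.62 and 11.96 after embelin, and fell by 4.14 in log2 (SE 0.22, adjusted p in limma 0.0204). HSPA1B, whose transcript is nearly identical so that probes may not separate the pair, fell by 3.97 (SE 0.30, adjusted p in limma 0.0268). With any 1 of the 4 arrays left out, neither passed the adjusted test, and limma then called 0 of all genes (2131 to 3050 at an unadjusted p under 0.05). In the 16 genes of this list the median was -0.41, with 14 lower and 2 higher. At an unadjusted p under 0.05 in limma, 6 of 16 were lower, against 11.1% of all genes. With the 2-fold threshold 5 remained, against 3.99% of all genes, and besides the HSP70 pair they were the J-domain co-chaperones of HSP70 DNAJB1 (-1.51, adjusted p in limma 0.0547), DNAJB4 (-1.20) and DNAJA1 (-1.15). BAG3, HSP90AA1 and HSPB1, which are heat-inducible too, stood at -1.04, -0.20 and 0.05. The rest of the genes followed went both ways. CRYAB (1.65, with 1 control array not well above background), HSF1 (0.32) and HSPB8 (0.29) were higher. HSF2 (-0.68), STIP1 (-0.52), HSP90AB1 (-0.23) and AHSA1 (-0.19) were lower. Which of these respond to heat in the cells used was not tested.

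**Figure D3:**
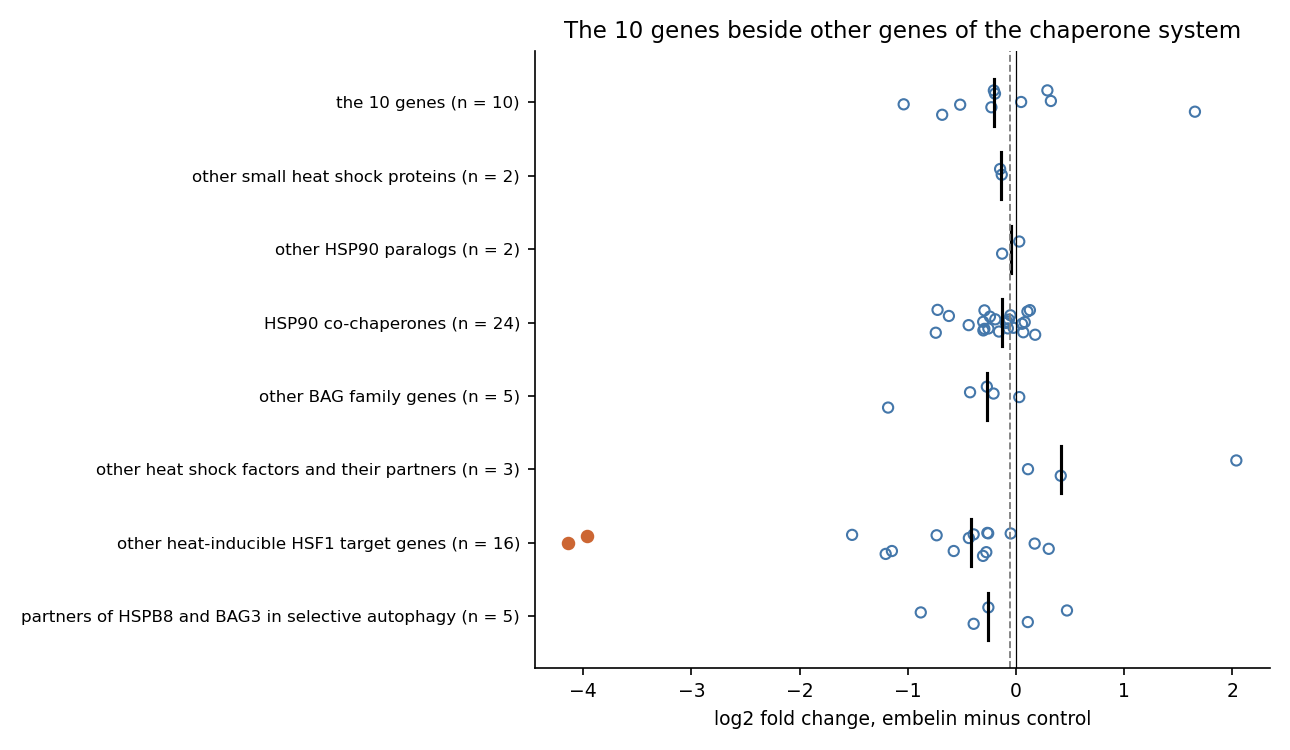
Log2 fold change of embelin over control (horizontal axis) for the 10 genes and for the tested genes of 7 lists by role, 1 point per gene with vertical jitter only to separate points. Filled orange points passed limma's adjusted test, black bars are list medians and the dashed line is the median of all genes (-0.06); HSPA1A and HSPA1B stand apart at -4.14 and -3.97, and the 24 HSP90 co-chaperones lie between -0.74 and 0.18.

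The 24 further HSP90 co-chaperones held no adjusted call in limma, with 18 lower and 6 higher, a median of -0.13 and a range from -0.74 to 0.18. Of all genes tested, 54.0% lay below -0.022 and 59.3% below 0.031. At an unadjusted p under 0.05, 3 of 24 were lower, against 11.1% of all genes, and these were CHORDC1 (-0.72), the cyclophilin PPID (-0.62) and the immunophilin FKBP4 (-0.44). The largest difference was that of DNAJC7 (-0.74), whose embelin arrays were 1.03 log2 units apart. The HSP90 paralogs of other compartments differed little, with -0.13 for HSP90B1 (GRP94) of the endoplasmic reticulum and 0.03 for TRAP1 of mitochondria.

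In the BAG family, BAG2, an inhibitor of the ubiquitin ligase CHIP, read 11.12 and 11.06 in the controls and 9.92 and 9.90 after embelin. Its replicates were within 0.06 log2 units of each other, and the difference was -1.18 (SE 0.16, adjusted p in limma 0.0569), just outside the threshold. BAG4 (-0.42, from 1 embelin array, since the other was marked as an outlier and left out) and BAG5 (-0.27) were the next in size, and none of the 5 further BAG genes passed the test. The partners of HSPB8 and BAG3 in selective autophagy held no adjusted call in limma among 5 genes, and 1 of them, SYNPO2, was lower at an unadjusted p of 0.0242, where 11.1% of all genes were lower at an unadjusted p under 0.05. The largest differences there were those of SYNPO2 (-0.88), whose protein takes part in BAG3-dependent autophagy in muscle, the cargo receptor SQSTM1 (p62) at 0.47, and HSPA8 (HSC70) at -0.39.

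Of the 8 other small heat shock proteins and relatives all were on the array, and HSPB9 (-0.15) and HSPB11 (-0.13, read under the RefSeq symbol IFT25) were tested. The other 6 were not well above background on both arrays of either group. Of the other heat shock factors and partners, 3 of 5 were tested. HSF5 was detected well above background after embelin in both samples and in neither control, so it was tested only through its embelin arrays. These read 6.58 and 4.22, which is 2.36 log2 units apart. The lowest signals detected on the arrays of control samples 1 and 2 were 3.83 and 5.85. The reading of 4.22 lay below the latter, so no fold is given. The adjusted p of HSF5 in limma was 0.304. HSF4, the lens factor, differed by 0.41 and HSBP1, a small protein that binds HSF1 trimers, by 0.11, and neither passed the test. The 15 heat-inducible target genes with a promoter window held a short heat shock element unit in 11 cases and a longer element in 5.

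**Figure D4:**
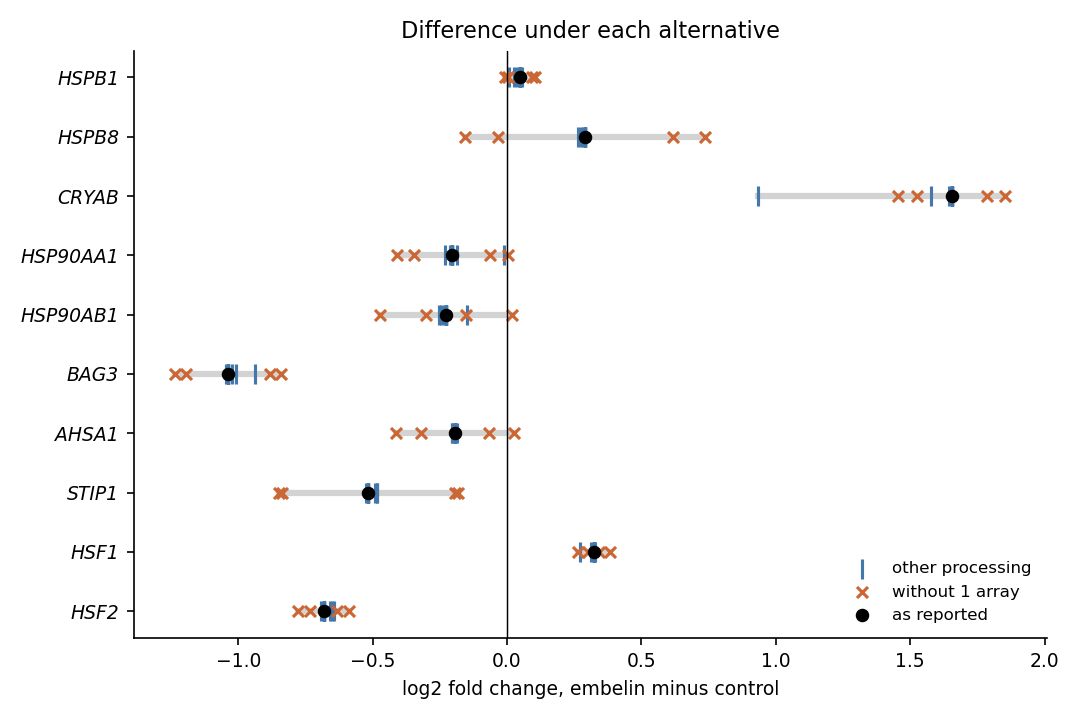
Log2 fold change of embelin over control (horizontal axis) for each gene as reported (black), under other processing (blue ticks) and with 1 array left out (orange crosses), with grey bars for the whole range. CRYAB, HSF1, BAG3, HSF2 and STIP1 stay on 1 side of 0 throughout, and the other 5 genes have values on both sides of 0 when 1 array is left out.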

How the data were processed

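The deposited intensity values of 4 Cy3 arrays were written by Agilent Feature Extraction 10.7.3.1 (per the file headers), which subtracts background, and were not normalized between arrays. No saturated spots were found. Intensities were scaled to equal 75th percentiles, the shift that the methods name, floored at 1 and log2 transformed. Outlier spots were left out and spots of a probe averaged. The deposited table of probe values, also intensities, served as an alternative. The brightest of the 26146 kept probes stood for each of 17650 genes. Groups were compared by limma 3.58.1 under R 4.3.3 (linear fit with moderated variance), with Benjamini-Hochberg adjustment over all genes, after the fit was tested on simulated data. The pooled SD had a median of 0.21 (log2), and precision is limited by having only 4 arrays. The genes named were all 10 members with every probe, the called genes and the 3 largest differences of each list, and the 3 patterns nearest to CRYAB. FKBP4, DNAJB4 and DNAJA1 were named beside a count after their values were seen. The members and lists were chosen with earlier results of these data known. The alternatives were another background correction, normalization, filter, test, block, position covariate or probe rule, and leaving out each array.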

Additional observations from a re-analysis of the deposited data

How the results depend on the processing

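The direction and the side of the adjusted threshold held in 151 of 159 values of the 10 genes under 16 alternatives, and the 4 arrays limit all of them. Many of these values could not have come out otherwise, so the count does not measure robustness. Alternatives that changed only the test, the prior, a block or the position covariate kept the differences themselves, so no direction could turn. Where 0 of all genes were called, none of the 10 genes could cross the threshold. CRYAB had no value where all 4 arrays had to be well above background. Leaving out 1 array gave -0.01 to 0.10 for HSPB1, -0.16 to 0.74 for HSPB8, -0.41 to 0.00238 for HSP90AA1, -0.47 to 0.02 for HSP90AB1 and -0.41 to 0.03 for AHSA1. The sign turned without embelin replicate 1 in HSPB1 (-0.00727), HSP90AA1 (0.00238), HSP90AB1 (0.0187) and AHSA1 (0.0269), and in HSPB8 without control replicate 1 (-0.16) and without embelin replicate 2 (-0.03). The lone array is then assumed to vary like the other group. CRYAB ranged from 1.46 to 1.85 and BAG3 from -1.23 to -0.84.

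Of all genes, limma called 320, and 699 with normexp, 159 from the deposited table, 764 with a signal on all 4 arrays and 1061 with a trended and robust prior. It called 0 with no filter (2343 at an unadjusted p under 0.05), with the replicate number as a block (3743), with the arrays of like background as a block (2759), with slide position (3053) and with any 1 array left out (0 to 0, against 2131 to 3050 unadjusted). The methods' t-test called 0 after Benjamini-Hochberg adjustment and 1003 at its own threshold. Among the 10 genes, limma called 0 (3 at an unadjusted p under 0.05, and 3 in the methods' t-test), 1 with normexp (CRYAB) and 1 with the trended and robust prior (BAG3). The 2 genes past 2-fold and an unadjusted p became 1 with normexp, with a signal on all 4 arrays, with the methods' t-test and with the mean over probes, and 1 to 2 with 1 array left out, since BAG3 dropped out without control replicate 1 and without embelin replicate 1. The 2 listed pathway genes called became 5 with normexp, with a signal on all 4 arrays and with the trended and robust prior, adding BAG2, DNAJA1 and DNAJB1. They became 0 with no filter, the methods' t-test, the replicate block, the block of like background, slide position, and any 1 array left out (0 to 0), where 6 to 10 pathway genes had an unadjusted p under 0.05. The cause was not tested. Arrays with the same replicate number deviated together only weakly (r = 0.175 over genes, which are not independent), so the numbers were not taken as pairs. For the arrays with a like share of detected probes r was -0.175, by construction the same value with its sign turned. Differences given within either kind of pair are descriptions only.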
